A study of Mus musculus with 16 samples.

Results

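Endoplasmic reticulum (ER) stress genes were followed in mouse liver across 4 groups of arrays. They are 10 genes, Hspa5, Hsp90b1, Creld2, Sdf2l1, Herpud1, Xbp1, Dnajb9, Atf4, Ddit3 and Trib3, taken by their symbols on the array out of 24409 genes tested. All 10 were found and passed the signal filter. Atf4 and Dnajb9 have a pair of probes each, of which the brighter was used, and the others have 1 probe each. Every member was well above background on all 16 arrays, except that the Hsp90b1 spot of 1 array, Lcn2-/- CCl4 4, was marked as an outlier by the image software and was left out.

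The livers came from male BALB/c mice that were 6 to 8 weeks old when dosing began. Some were wild type (WT) and the others Lcn2-/-, that is, lacking lipocalin 2, a small secreted protein of the innate immune response. The Lcn2-/- line was made on a mixed background of other inbred strains and then backcrossed to BALB/c, so DNA near Lcn2 can still differ in strain from the WT mice. CCl4, a solvent that hepatocytes turn into a toxic radical, was given in corn oil into the peritoneum at 0.5 ml/kg, 2 times a week for 4 weeks, and the mice were killed 48 h after the final injection. Control mice received corn oil. WT livers gave 4 control and 5 CCl4 arrays, and Lcn2-/- livers 3 control and 4 CCl4 arrays. The labels number the arrays of a group without saying in words that each is a separate mouse, so the p-values measure the spread between these samples. The question asked of these genes is how repeated CCl4 injury moved them and whether the loss of Lcn2 changed that.

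Values are log2 signal, quantile normalised over the arrays, and a difference of 1 is a doubling. Differences were tested with limma across all genes, and a gene is said to have risen or fallen where the Benjamini-Hochberg adjusted p was under 0.05. Lcn2 itself was lower in Lcn2-/- livers on every array, at 10.46 to 12.25 against 13.80 to 17.57 in WT, as its labels say. With CCl4 it was not called in WT, at a log2 difference of -0.27 (adjusted p = 0.826). Its highest array, at 17.57, was WT control 3. Its probe was still well above background on 3 of 3 Lcn2-/- control arrays and 4 of 4 Lcn2-/- CCl4 arrays. Between 51.6% and 60.9% of spots per array were well above background. The 9 hepatocyte markers, Alb and Ttr among them, had a summed level of 21.45 to 21.69 on every array and 0 of 9 were called in any comparison, while 7 of 7 stellate cell and fibroblast markers rose with CCl4 in WT and 6 of 7 in Lcn2-/-. The markers of plasma cells, which make much ER chaperone message, had a summed level of 9.40 to 11.05, with 0 of 5 called in any comparison. Of 13 listed markers of pancreatic acinar cells, which are also rich in ER, only 6 could be tested. Of these 6, 2 fell with CCl4 in WT (Ctrb1, -0.88, and Ctrl, -0.49) and 1 in Lcn2-/- (Ctrl, -0.65). The median log2 difference of the 6 was 0.02 in WT and -0.46 in Lcn2-/-. Of 7 macrophage markers, 2 rose in each genotype, Cd68 (2.12 and 1.84) and Lyz2 (2.46 and 2.69), and 1 fell in WT. The median log2 difference of the 7 was 0.07 in WT and 0.03 in Lcn2-/-, so the list as a whole did not rise. Of 4 neutrophil markers 2 rose in WT and 0 in Lcn2-/-. Over all genes tested, 16.7% were called with CCl4 in WT and 12.1% in Lcn2-/-. The part of these cells in the members' values was not tested. In whole liver, fewer cells of a type and less RNA per cell cannot be told apart. All control arrays and WT CCl4 1 lay on 1 slide and the other CCl4 arrays on a second one. In Lcn2-/- the treatment and the slide cannot be told apart, and in WT a single array separates them. A slide term therefore rests on that array in both genotypes. Within the slides, WT controls and WT CCl4 2 to 5 lay in row 1, and all Lcn2-/- arrays and WT CCl4 1 in row 2. In controls the genotype and the row therefore cannot be told apart. Under CCl4 only WT CCl4 1, on the other slide, lay outside this order.

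The ER folds secreted and membrane proteins, and the hepatocyte, which secretes most plasma proteins, carries a large ER. When unfolded protein builds up, 3 sensors in the ER membrane start the unfolded protein response: PERK, which slows translation and lets ATF4 be made, IRE1, which splices the Xbp1 message into that of an active transcription factor, and ATF6, which is cut in the Golgi into a factor that enters the nucleus. Their targets are ER chaperones, genes for the removal of misfolded protein, and, through ATF4 and CHOP, genes of amino acid supply and of cell death. CCl4 metabolism damages the ER membrane of hepatocytes around the central vein, and ER stress genes are known to be raised in acutely injured liver.

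At 48 h after the last CCl4 dose, the ER stress genes were called no more often than genes at large. In WT livers, 1 of 10 members was called, against 16.7% of all genes tested, and in Lcn2-/- livers 1 of 10, against 12.1% of all genes. Both were lower: Sdf2l1, a lumenal ER protein of the chaperone system, fell 2.11-fold in WT, and Xbp1, the transcription factor of the IRE1 arm, fell 1.48-fold in Lcn2-/-. The members' median log2 difference was -0.14 in WT and -0.13 in Lcn2-/-, beside -0.03 and -0.02 over all genes. None of the 10 rose in either genotype, and the differences ran from -1.08 to 0.26 in WT and from -0.94 to 0.32 in Lcn2-/-. At an unadjusted p under 0.05 there were 3 members in WT (Sdf2l1, Trib3 and Hsp90b1) and 3 in Lcn2-/- (Xbp1, Trib3 and Sdf2l1), all lower.

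**Figure D1:**
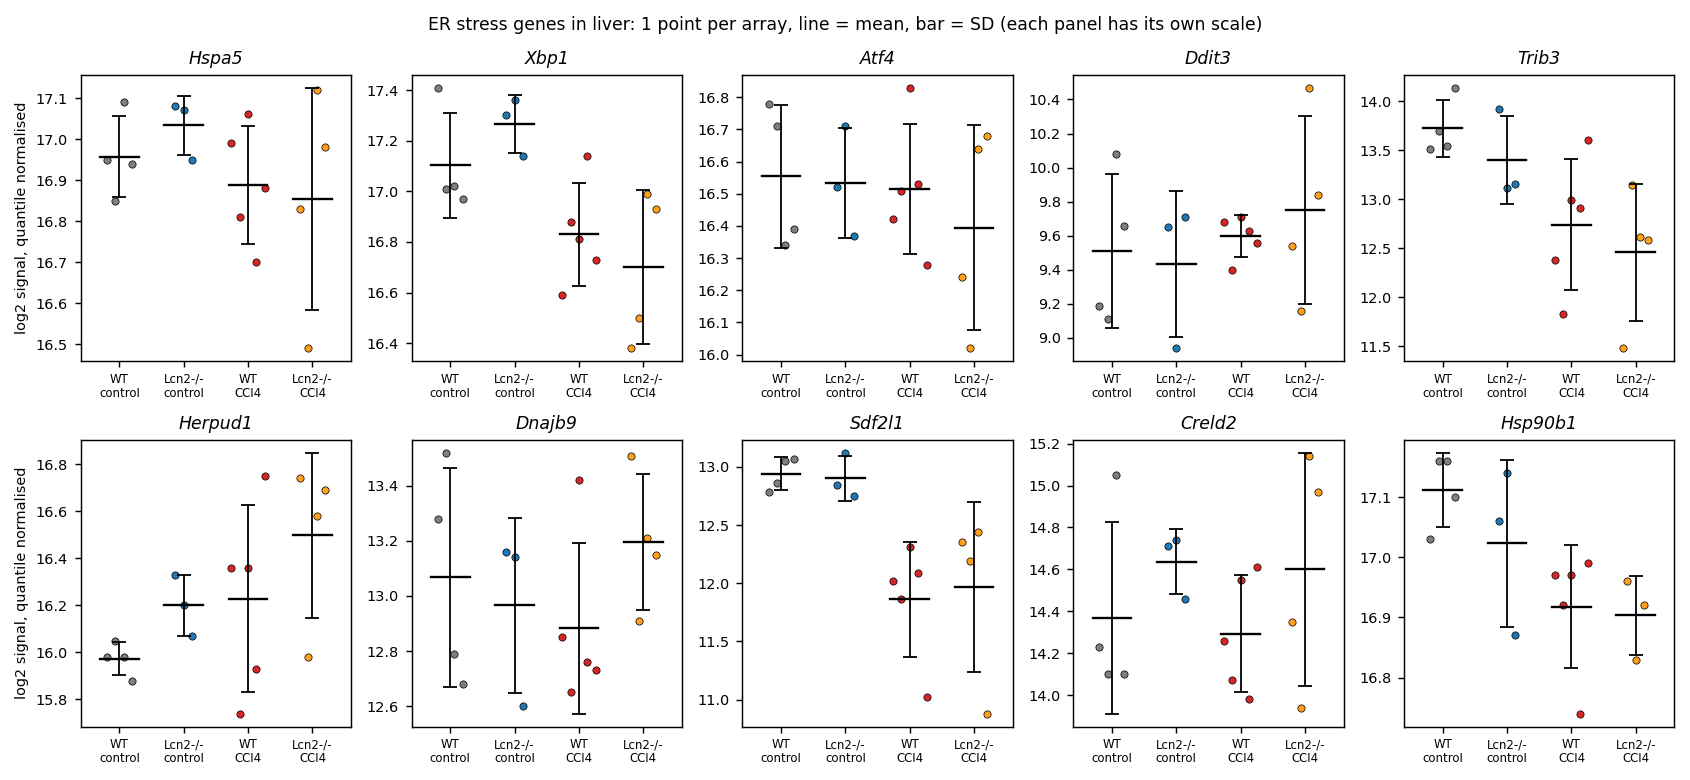
Quantile normalised log2 signal (vertical axis, a scale of its own in each panel) of the 10 ER stress genes in the 4 groups (horizontal axis), with 1 point per array, a line at the group mean and a bar of 1 SD. The Sdf2l1 points of both CCl4 groups, 10.88 to 12.44, lie below all control points, 12.75 to 13.12, while the Atf4, Ddit3 and Creld2 points of the groups overlap.

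Among the ER chaperones, Hspa5 encodes BiP, the abundant ER chaperone that also holds the sensors inactive and whose rise is the usual mark of ER stress. Its probe (mm9 chr2:34631913-34631972) read 16.95, 16.85, 17.09 and 16.94 on WT control arrays and 17.08, 17.07 and 16.95 on Lcn2-/- control arrays. Under CCl4 it read 16.99, 16.81, 17.06, 16.70 and 16.88 in WT and 16.83, 16.49, 17.12 and 16.98 in Lcn2-/-. All 4 groups overlapped, and the lowest array was Lcn2-/- CCl4 2. The log2 difference with CCl4 was -0.07 ± 0.12 (SE) in WT, with a 95% interval of -0.33 to 0.19, and -0.18 ± 0.14 in Lcn2-/-, with an interval of -0.48 to 0.12.

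Hsp90b1 encodes the ER form of HSP90, which folds integrins and Toll-like receptors. Its levels were 17.03, 17.16, 17.16 and 17.10 in WT controls and 16.97, 16.92, 16.97, 16.74 and 16.99 under CCl4, so that every WT CCl4 array lay below every WT control array, by little. The log2 difference of -0.19 ± 0.09 had an adjusted p of 0.16 and did not pass. In Lcn2-/- it read 17.06, 17.14 and 16.87 in controls and 16.96, 16.83 and 16.92 on the 3 CCl4 arrays measured, a difference of -0.12 ± 0.11 in a fit without the marked array. With the marked spot kept, at 15.64, the Lcn2-/- difference was -0.44 (adjusted p = 0.263). Creld2, a disulfide isomerase-like protein of the ER that is induced with BiP, ranged from 14.10 to 15.05 in WT controls, 14.46 to 14.74 in Lcn2-/- controls, 13.98 to 14.61 in WT CCl4 and 13.94 to 15.14 in Lcn2-/- CCl4. The groups overlapped, with differences of -0.08 ± 0.26 in WT and -0.04 ± 0.29 in Lcn2-/-. Creld2 is printed 10 times on the array, and its value is the mean of those spots.

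Sdf2l1 encodes a stromal-cell-derived-factor-2-like protein that works with BiP and its J-protein partners in keeping ER clients soluble. Its probe (mm9 chr16:17130426-17130485) read 12.78, 12.86, 13.05 and 13.07 in WT controls and 12.84, 13.12 and 12.75 in Lcn2-/- controls. Under CCl4 it read 12.02, 11.86, 12.31, 12.09 and 11.02 in WT and 12.35, 12.19, 12.44 and 10.88 in Lcn2-/-. Every CCl4 array was below every control array of both genotypes, and WT CCl4 5 and Lcn2-/- CCl4 4 were the lowest. In WT, Sdf2l1 fell by 1.08 ± 0.30 on the log2 scale, with a 95% interval of -1.72 to -0.43 and an adjusted p of 0.0242. In Lcn2-/- the difference was -0.94 ± 0.34, with an interval of -1.67 to -0.21 and an adjusted p of 0.0902, and the interaction, 0.14 ± 0.46, did not show the responses to differ. On the slide that held both groups, the 1 WT CCl4 array lay 0.92 below the mean of the 4 WT controls, a log2 difference of -0.92, and with slide as a term the WT difference was -0.92 (adjusted p = 0.335). The WT call was lost without WT control 2 (adjusted p = 0.0551) or WT control 4 (adjusted p = 0.0585).

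The promoters of the chaperone genes are shown because they carry the elements through which ATF6 and XBP1 are known to act. The ER stress response element, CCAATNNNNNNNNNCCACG, was searched on both strands in the 250 bases before the start site of every gene in the RefSeq table (GRCm38.p6), in which all 10 members matched by symbol. It was found in 3 of 10 members, Hspa5, Creld2 and Hsp90b1, and in 0.113% of 32851 promoters. Element II, which reads ATTGG, any 1 base and then CCACG, stood in Herpud1 and in 0.0304% of promoters. These 4 members are printed 5′ to 3′ along the gene, with the fixed bases of the element in capitals, as chr2:34771840-34772089 (plus strand), chr15:88819396-88819645 (plus), chr10:86705445-86705694 (minus) and chr8:94386179-94386428 (plus). Sdf2l1, chr16:17132384-17132633 (minus), the member that fell in WT, holds neither element in this form, and its 3 copies of the core CCACG, a sequence found in 28.3% of promoters and also part of both elements, are in capitals.
Hspa5: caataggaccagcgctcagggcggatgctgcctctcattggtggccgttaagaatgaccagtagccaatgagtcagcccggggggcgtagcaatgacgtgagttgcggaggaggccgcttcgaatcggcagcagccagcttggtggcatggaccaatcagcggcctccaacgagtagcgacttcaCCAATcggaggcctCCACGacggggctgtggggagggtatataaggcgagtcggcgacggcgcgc
Creld2: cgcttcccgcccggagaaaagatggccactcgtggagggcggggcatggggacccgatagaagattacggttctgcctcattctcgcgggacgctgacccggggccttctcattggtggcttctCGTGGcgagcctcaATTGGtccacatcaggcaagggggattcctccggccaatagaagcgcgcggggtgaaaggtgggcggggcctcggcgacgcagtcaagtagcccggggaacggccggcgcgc
Hsp90b1: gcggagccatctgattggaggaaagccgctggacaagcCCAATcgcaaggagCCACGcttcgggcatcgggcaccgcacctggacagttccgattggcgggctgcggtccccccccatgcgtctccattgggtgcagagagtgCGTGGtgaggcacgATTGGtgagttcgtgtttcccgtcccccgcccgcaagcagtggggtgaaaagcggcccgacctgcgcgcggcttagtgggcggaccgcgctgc
Herpud1: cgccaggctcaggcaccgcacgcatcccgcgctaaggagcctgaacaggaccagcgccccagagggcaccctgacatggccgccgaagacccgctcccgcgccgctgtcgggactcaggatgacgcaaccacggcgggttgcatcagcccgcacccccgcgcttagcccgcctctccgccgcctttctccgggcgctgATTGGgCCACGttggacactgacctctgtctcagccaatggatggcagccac
Sdf2l1: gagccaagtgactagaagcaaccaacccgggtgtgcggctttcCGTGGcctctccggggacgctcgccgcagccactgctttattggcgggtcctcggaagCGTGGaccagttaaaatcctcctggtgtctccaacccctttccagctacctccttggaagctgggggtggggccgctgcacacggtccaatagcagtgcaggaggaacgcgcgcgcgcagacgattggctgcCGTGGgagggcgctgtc
The Hspa5 element lies 47 to 65 bases before the start site, that of Creld2 108 to 126 bases before it on the opposite strand, and those of Hsp90b1 end 194 bases (same strand) and 89 bases (opposite strand) before it. The Herpud1 element II lies 42 to 52 bases before its start. The unfolded protein response element TGACGTGG was in 0 of 10 members and in 0.563% of promoters, and the ATF and CEBP composite site TGATGNAAN in Herpud1 alone of the members and in 3.44% of promoters. These are matches of letters, not measured binding sites.

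Herpud1 encodes a membrane protein that gathers the ubiquitin ligase complex of ER-associated degradation. It ranged from 15.88 to 16.05 in WT controls and from 15.74 to 16.75 in WT CCl4, a difference of 0.26 ± 0.19 (adjusted p = 0.404). In Lcn2-/- it ranged from 16.07 to 16.33 in controls and from 15.98 to 16.74 under CCl4, a difference of 0.30 ± 0.22 (adjusted p = 0.415). It was the member with the highest difference in WT, and the spread of its CCl4 arrays was wider than that of the controls, with an SD of 0.398 in WT CCl4 against 0.0732 in WT controls.

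Xbp1 and Dnajb9 belong to the IRE1 arm, Xbp1 as the spliced transcription factor, which hepatocytes also use for lipogenesis and secretion, and Dnajb9 as a BiP cochaperone and classical XBP1 target that represses IRE1. The Xbp1 probe was not matched to a splice form. It read 17.41, 17.01, 17.02 and 16.97 in WT controls and 16.59, 16.88, 16.81, 17.14 and 16.73 in WT CCl4, and these groups overlapped through WT CCl4 4. In Lcn2-/- it read 17.30, 17.36 and 17.14 in controls and 16.38, 16.50, 16.99 and 16.93 under CCl4, with every CCl4 array lower. Xbp1 fell by 0.57 ± 0.17 in Lcn2-/- (95% interval -0.94 to -0.20, adjusted p = 0.0458), while the WT difference was -0.27 ± 0.15 (adjusted p = 0.244) and the interaction -0.29 ± 0.23 (adjusted p = 1). The Lcn2-/- call stood next to the threshold. It was lost without any 1 of WT control 2, 3 or 4, Lcn2-/- control 1, 2 or 3, WT CCl4 2, 3 or 5 and Lcn2-/- CCl4 1 or 2, where the adjusted p was 0.0521 to 0.153. With slide as a term it was also lost, at a difference of -0.86 (adjusted p = 0.177). That term rests on WT CCl4 1, the only CCl4 array on the slide of the controls.

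Dnajb9 ranged from 12.68 to 13.52 in WT controls, 12.60 to 13.16 in Lcn2-/- controls, 12.65 to 13.42 in WT CCl4 and 12.91 to 13.51 in Lcn2-/- CCl4. Its differences with CCl4 were -0.19 ± 0.21 in WT and 0.23 ± 0.24 in Lcn2-/-, the widest gap between genotypes among the members, and the interaction of 0.42 ± 0.32 had an adjusted p of 1. The second Dnajb9 probe gave 0.01 in WT and 0.10 in Lcn2-/-.

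Atf4, Ddit3 and Trib3 form the line of the PERK arm. Atf4, the transcription factor that is controlled mainly by translation of its message, ranged from 16.34 to 16.78 in WT controls, 16.37 to 16.71 in Lcn2-/- controls, 16.28 to 16.83 in WT CCl4 and 16.02 to 16.68 in Lcn2-/- CCl4. Its differences were -0.04 ± 0.16 in WT and -0.14 ± 0.18 in Lcn2-/-, and its second probe gave 0.03 and -0.20, none of them past the threshold. Ddit3 encodes CHOP, the factor through which lasting ER stress leads to cell death. It ranged from 9.11 to 10.08 in WT controls, 8.94 to 9.71 in Lcn2-/- controls, 9.40 to 9.71 in WT CCl4 and 9.16 to 10.47 in Lcn2-/- CCl4, with differences of 0.09 ± 0.26 and 0.32 ± 0.29.

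Trib3, a pseudokinase that is induced by ATF4 and CHOP and that binds AKT in liver, had the lowest log2 difference in WT after that of Sdf2l1. It read 13.51, 13.70, 13.54 and 14.14 in WT controls and 13.92, 13.12 and 13.16 in Lcn2-/- controls. Under CCl4 it read 12.38, 11.83, 12.99, 12.91 and 13.60 in WT and 11.48, 13.15, 12.62 and 12.58 in Lcn2-/-. Most CCl4 arrays were below the controls, but WT CCl4 5 lay inside the WT control range and Lcn2-/- CCl4 2 inside that of Lcn2-/- controls. The differences of -0.98 ± 0.36 in WT (adjusted p = 0.077) and -0.94 ± 0.41 in Lcn2-/- (adjusted p = 0.153) did not pass. The WT difference passed without WT CCl4 5 (-1.19, adjusted p = 0.0342) or without Lcn2-/- CCl4 1 (adjusted p = 0.0456), and on the slide with both groups it was -1.34. Leaving out 1 array moved the Lcn2-/- difference between -0.62, without Lcn2-/- CCl4 1, and -1.17, without Lcn2-/- CCl4 2, and it was -0.68 without Lcn2-/- control 1. With array weights both differences passed, at -0.97 in WT (adjusted p = 0.0416) and -1.13 in Lcn2-/- (adjusted p = 0.0369).

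**Figure D2:**
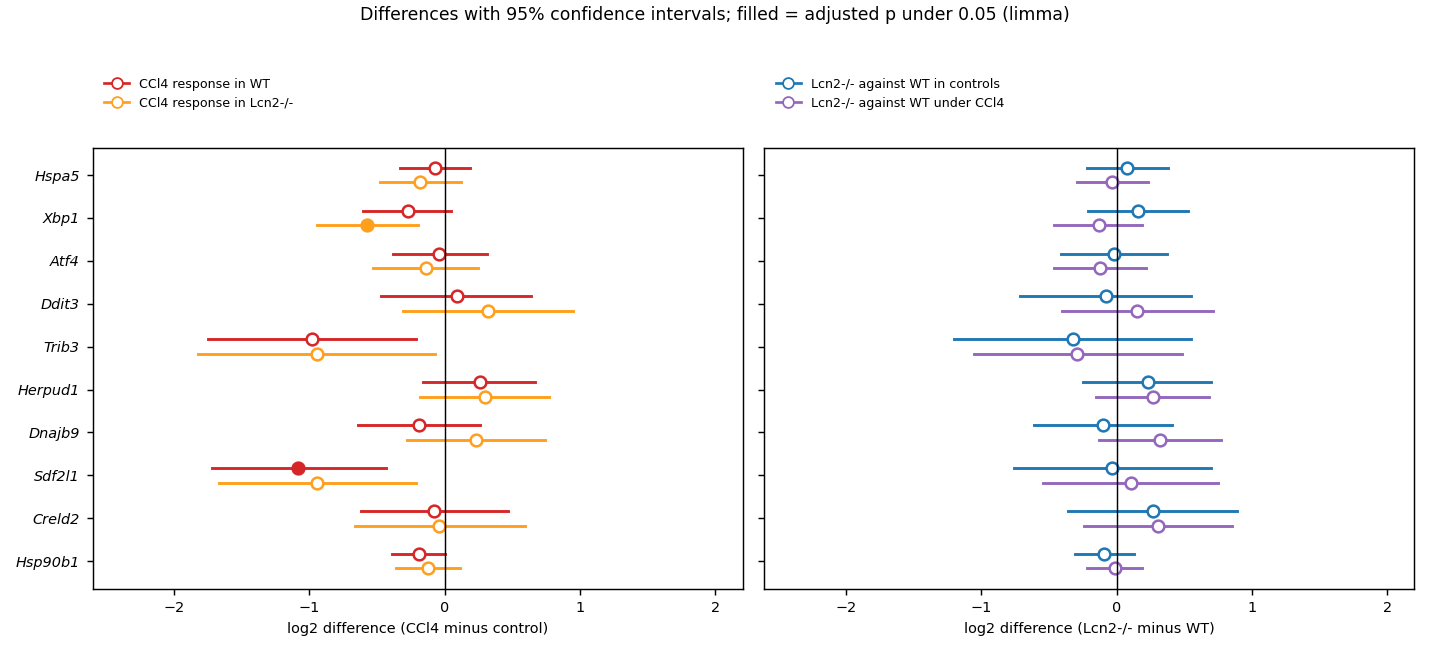
Log2 differences (horizontal axes) of the 10 members (vertical axis) with 95% confidence intervals, CCl4 minus control for each genotype at left and Lcn2-/- minus WT for each treatment at right, filled points being those with an adjusted p under 0.05. The 2 filled points are Sdf2l1 in WT, at -1.08, and Xbp1 in Lcn2-/-, at -0.57, and the right panel has none.

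Loss of Lcn2 was not accompanied by a called change in any ER stress gene. Lcn2 itself passed between genotypes, at -3.33 under CCl4 (limma adjusted p = 0.0396) and -4.15 in controls (adjusted p = 0.0215). Of 28 alternative fits, 12 kept its call under CCl4 and 24 that in controls. Leaving out any 1 CCl4 array lost the call under CCl4. The SE of Lcn2 under CCl4, 0.668, was above that of every member, at most 0.358 (Trib3). Members without a call are therefore not shown to be unchanged. Under CCl4, 0 of 10 members differed between Lcn2-/- and WT, against 0.647% of all genes tested, and in control livers 0 of 10, against 0.516%. The interaction, which asks whether the CCl4 response differed between genotypes, was called for 0 of 10 members, against 0.0533% of all genes. At an unadjusted p under 0.05 the limma count was 0 of 10 members in each of these 3 comparisons. Under CCl4 the differences between genotypes ran from -0.29 for Trib3 to 0.32 for Dnajb9, with a median of 0.05 beside -0.01 over all genes. In controls they ran from -0.32 for Trib3 to 0.27 for Creld2.

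For Hspa5 the 95% interval of the difference between genotypes was -0.29 to 0.23 under CCl4 and -0.22 to 0.38 in controls, and for Hsp90b1 it was -0.22 to 0.19 under CCl4, where 3 of the 4 Lcn2-/- arrays were used. For Trib3 it was -1.05 to 0.48 under CCl4 and for Sdf2l1 -0.54 to 0.75. In controls Herpud1 read 16.07 to 16.33 in Lcn2-/- against 15.88 to 16.05 in WT, a difference of 0.23 ± 0.22 with an adjusted p of 0.982. Hspa5 lies on the same chromosome as Lcn2, its probe 2.39 Mb from that of Lcn2 on mm9, and its control arrays of the genotypes overlapped.

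Within groups, some members varied together from array to array. After each group's mean was subtracted, Creld2 followed Hspa5 more closely than any other of 24408 genes (Pearson r = 0.862 over 16 arrays), with Ddit3 at rank 123 (r = 0.672), Herpud1 at rank 345 (r = 0.606), Atf4 at rank 633 (r = 0.549) and Hsp90b1 at rank 694 (r = 0.539, 15 arrays). Dnajb9 (r = 0.296, rank 3756), Xbp1 (r = 0.249, rank 4824), Sdf2l1 (r = -0.01) and Trib3 (r = -0.11) followed it less closely. The other 9 genes most like Hspa5 were Gm13032, C1qtnf12, Lamp3, Zzz3, Ggps1, Gdf9, 9130230N09Rik, Tafa1 and Eloc, with r from 0.792 to 0.855, and none is on the stress gene lists used here. These values are descriptions over arrays that share slide, labelling and scan.

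**Figure D3:**
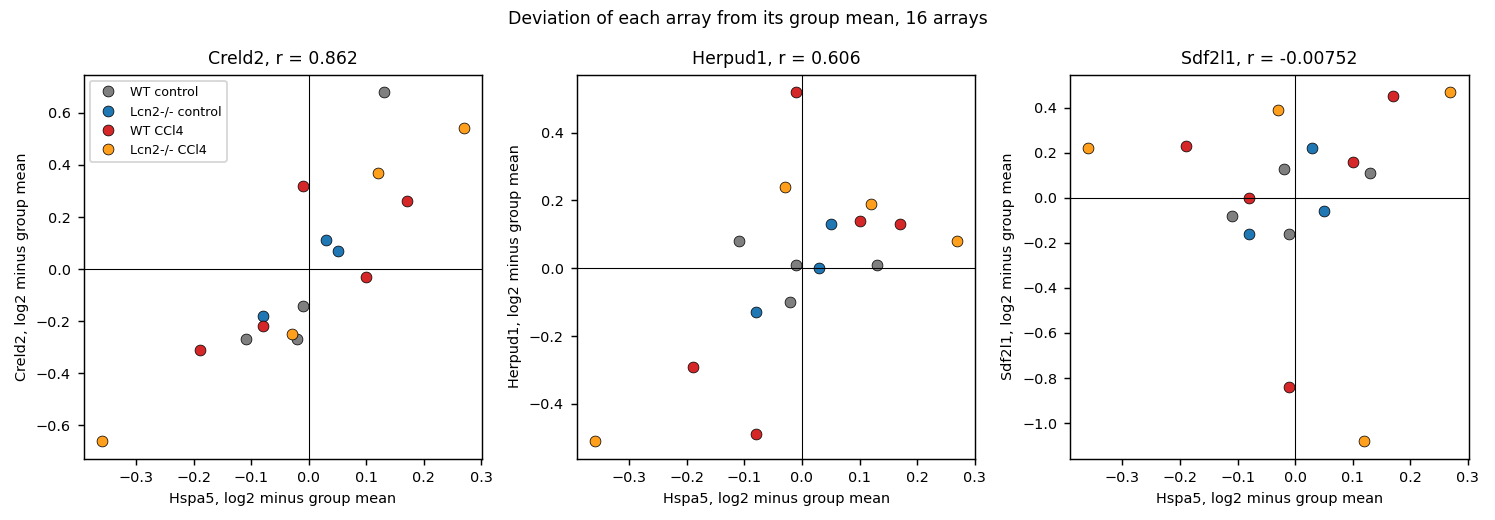
Deviation of each of the 16 arrays from its group mean for Hspa5 (horizontal axes, log2) against Creld2, Herpud1 and Sdf2l1 (vertical axes, log2), coloured by group. The Creld2 points follow the Hspa5 deviations (r = 0.862), whereas the Sdf2l1 points do not (r = -0.01), with the lowest Sdf2l1 points from WT CCl4 5 and Lcn2-/- CCl4 4.

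The wider pathway was read from 6 lists of other genes. Of 37 tested targets of ATF4 and CHOP, 9 rose and 1 fell with CCl4 in WT, and 5 rose and 1 fell in Lcn2-/-, where 16.7% and 12.1% of all genes were called. Their median difference was -0.01 in WT and 0.19 in Lcn2-/-, beside -0.03 and -0.02 over all genes. The 9 that rose in WT were Atf3, Aldh18a1, Phgdh, Psat1, Tnfrsf10b, Vldlr, Ddit4, Bcl2l11 and Atf5, and the 5 that rose in Lcn2-/- were Atf3, Aldh18a1, Vldlr, Nupr1 and Tnfrsf10b. Aldh18a1 is in both counts although it passed the signal filter only through the CCl4 arrays, where it was higher. Atf3, a stress transcription factor with many inducers, read 7.63, 7.65, 10.74 and 8.74 in WT controls and 10.66, 11.41, 11.08, 11.54 and 11.14 in WT CCl4, so that the groups overlapped through WT control 3. It rose 5.56-fold in WT (adjusted p = 0.00933) and 6.43-fold in Lcn2-/- (adjusted p = 0.0158), the latter call being lost without Lcn2-/- control 1 (adjusted p = 0.0884) or 2 (adjusted p = 0.0788). The log2 difference of Atf3 was 2.47 in WT and 3.16 without WT control 3, and 2.68 in Lcn2-/- and 3.41 without Lcn2-/- control 3.

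Among the same targets, Aldh18a1, an enzyme of proline synthesis, was well above background on 1 of 4 WT and 1 of 3 Lcn2-/- control arrays, so that it passed the signal filter through the CCl4 arrays and no size is given for its difference. Its levels were 4.67 to 6.59 in WT controls and 6.77 to 7.52 in WT CCl4. In Lcn2-/- they were 2.92 to 6.23 in controls and 6.47 to 7.16 under CCl4. No result is drawn from its calls, since it entered the test through the group where it was higher. With no filter neither call passed (adjusted p = 0.064 in WT and 0.051 in Lcn2-/-). Phgdh, the first enzyme of serine synthesis, rose by 1.51 in WT (adjusted p = 0.0357), and Vldlr, a lipoprotein receptor, by 1.77 in Lcn2-/- (adjusted p = 0.0172). WT CCl4 1 read 10.75 for Phgdh against 7.94 to 8.61 on the other WT CCl4 arrays, and without it the Phgdh difference was 1.00, still called. Cars, the cysteinyl-tRNA synthetase, fell by 0.32 in WT (adjusted p = 0.0469) and 0.55 in Lcn2-/- (adjusted p = 0.00647). Several of these calls were lost when 1 array was left out: Aldh18a1 in WT without WT control 1, 2 or 4, Lcn2-/- control 1, any WT CCl4 array or Lcn2-/- CCl4 3 (adjusted p 0.0513 to 0.133), and in Lcn2-/- without Lcn2-/- control 1 or 2 or Lcn2-/- CCl4 1, 2 or 3 (0.0575 to 0.153). The Phgdh call was lost without WT control 1, 2 or 4 or WT CCl4 2 (0.0586 to 0.109), and that of Vldlr without Lcn2-/- control 1 or 2 (0.0783 and 0.0987). Cars in WT was lost without WT control 1, 2 or 4, Lcn2-/- control 1 or 3, WT CCl4 2, 3, 4 or 5 or Lcn2-/- CCl4 1, 2 or 3 (0.052 to 0.13).

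**Figure D4:**
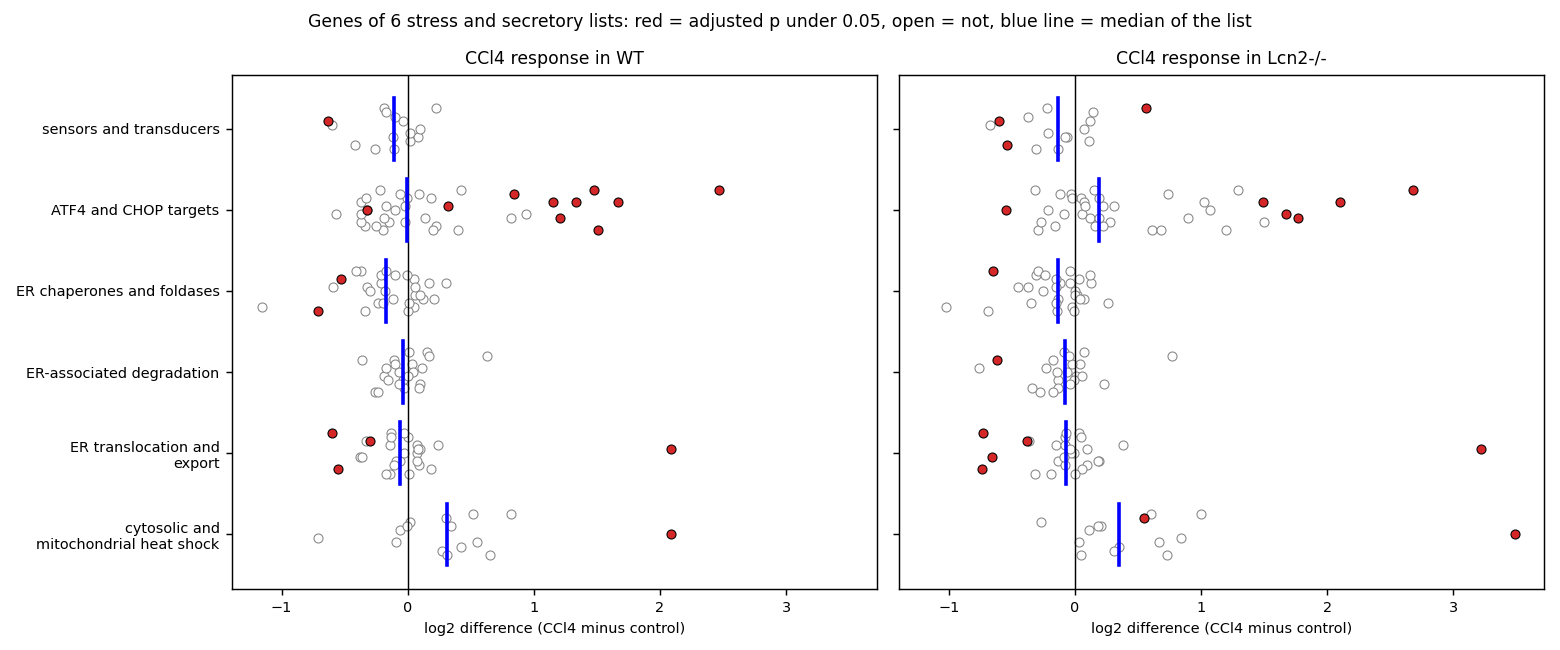
Log2 difference of CCl4 minus control (horizontal axes) for every tested gene of the 6 lists (vertical axis), in WT at left and Lcn2-/- at right, red where the adjusted p was under 0.05, with a blue line at each list's median. Called genes of the ATF4 and CHOP list lie mostly to the right, 9 of 10 in WT with Aldh18a1 counted. Those of the sensor, chaperone and degradation lists lie mostly to the left.

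Of 29 other ER chaperones and foldases, in comparisons that called 16.7% of all genes in WT and 12.1% in Lcn2-/-, 2 fell and none rose in WT: Fkbp11, a prolyl isomerase of secretory cells, by 0.71 (adjusted p = 0.0376), and Pdia5, a disulfide isomerase, by 0.53 (adjusted p = 0.00645). In Lcn2-/- 1 fell, Hspa13, an ER and microsomal HSP70 relative, by 0.65 (adjusted p = 0.0189). The median of this list was -0.17 in WT and -0.13 in Lcn2-/-. Of 22 genes of ER-associated degradation, 0 were called in WT and 1 fell in Lcn2-/-, Ufd1, a partner of the VCP segregase, by 0.62 (adjusted p = 0.00871). With the mean of all probes of a gene, the Ufd1 difference was -0.15 (adjusted p = 0.464) and that of Hspa13 -0.38 (adjusted p = 0.0989), neither of them called. Fkbp11 lost its call without any 1 WT control array or without WT CCl4 1, 2, 3 or 4 (0.0556 to 0.101), and Hspa13 without Lcn2-/- control 1 (0.0864) or Lcn2-/- CCl4 1 (0.0502).

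Of 15 sensors and transducers, 1 fell in WT, where 16.7% of all genes were called, and 2 fell and 1 rose in Lcn2-/-, where 12.1% were. Ern2, the IRE1 form known from gut epithelium and dim here, fell by 0.63 in WT (adjusted p = 0.00445) and 0.60 in Lcn2-/- (adjusted p = 0.0176), where it was well above background on 1 of 4 CCl4 arrays, so that the size of the difference rests partly on background signal. With the normexp background the differences were -0.23 in WT and -0.26 in Lcn2-/-, the latter not called (adjusted p = 0.0529). Eif2ak3, which encodes PERK, fell by 0.54 in Lcn2-/- (adjusted p = 0.0422), and Mbtps2, the protease that makes the second cut in ATF6, rose by 0.56 (adjusted p = 0.0183). The Lcn2-/- calls were lost without Lcn2-/- control 2 for Ern2 (0.0924), without Lcn2-/- control 2 (0.101) or Lcn2-/- CCl4 3 (0.0511) for Mbtps2, and for Eif2ak3 without WT control 1, 2 or 4, any Lcn2-/- control, WT CCl4 2 or 4 or Lcn2-/- CCl4 1, 2 or 4 (0.051 to 0.202).

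Of 27 tested genes of ER translocation and export, 3 fell and 1 rose in WT, and 4 fell and 1 rose in Lcn2-/-, shares near the 16.7% and 12.1% of all genes. Spcs2, a subunit of the signal peptidase that trims secreted proteins, read 14.94, 14.85, 14.79 and 14.92 in WT controls and 14.60, 14.18, 14.30, 14.20 and 14.38 in WT CCl4, with every CCl4 array lower. It fell by 0.55 in WT (adjusted p = 0.00137) and 0.74 in Lcn2-/- (adjusted p = 0.000641). Sec61g, the gamma subunit of the protein channel, fell by 0.60 (adjusted p = 0.0147) and 0.73 (adjusted p = 0.0132), Spcs3 by 0.30 in WT (adjusted p = 0.0256), and Sec24d, a coat protein of vesicles leaving the ER, by 0.66 in Lcn2-/- (adjusted p = 0.0234). Spcs3 lost its call without WT control 1, 2 or 4 or WT CCl4 2 or 3 (0.0501 to 0.0834), and in Lcn2-/- Sec61g (0.0526 and 0.0534) and Sec24d (0.0967 and 0.0786) lost theirs without Lcn2-/- control 1 or 2.

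The gene that rose in this list was Kdelr3, a receptor that returns escaped chaperones to the ER. It read 6.02, 4.90, 7.92 and 7.04 in WT controls and 8.82, 8.70, 8.61, 8.48 and 8.18 in WT CCl4, 4.26-fold higher with CCl4 (adjusted p = 0.00851), with WT control 2 not well above background. None of the Lcn2-/- control arrays had it well above background, at 5.14, 3.75 and 5.46, and under CCl4 it read 7.74, 8.27, 8.13 and 7.88, at least 5.60-fold higher (adjusted p = 0.00169), the bound being taken, on the quantile normalised scale, against the lowest signal counted as above background on each control array. With the normexp background, which adds an offset, the log2 differences were 1.3 in WT and 1.69 in Lcn2-/-, smaller than on that scale and both called. The summed level of the stellate cell and fibroblast markers moved the same way, at 16.57 to 17.59 on control arrays and 17.79 to 18.97 on CCl4 arrays, and that of the cholangiocyte markers was at 11.82 to 14.34 and 13.82 to 14.95. Of 5 cholangiocyte markers 1 rose in each genotype, and of 5 endothelial markers 1 rose in each genotype and 1 fell in WT. The part of these cells in the Kdelr3 values was not tested.

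Heat shock genes of the cytosol and mitochondria, which answer to misfolding outside the ER, had a median of 0.31 in WT and 0.35 in Lcn2-/-, beside -0.03 and -0.02 over all genes, with 1 of 15 risen in WT and 2 of 15 in Lcn2-/-, beside 16.7% and 12.1% of all genes called. Hspa1a, the inducible HSP70, read 7.19, 6.98, 8.03 and 7.23 in WT controls and 8.77, 8.57, 10.68, 9.51 and 9.71 in WT CCl4, 4.26-fold higher (adjusted p = 0.0266). In Lcn2-/- it read 6.77, 7.91 and 7.70 in controls and 11.05, 8.86, 12.37 and 11.54 under CCl4, 11.2-fold higher (adjusted p = 0.00379). Every CCl4 array was above every control array of its genotype. The Lcn2-/- log2 difference was 3.49, and 4.19 without Lcn2-/- CCl4 2. Hspa1a has a near-identical copy, Hspa1b, whose message this probe may also read. Hsp90ab1, the constitutive cytosolic HSP90, rose by 0.55 in Lcn2-/- (adjusted p = 0.00599), a call lost with 75th percentile scaling (0.23, adjusted p = 0.345) and with only the 2 groups compared (adjusted p = 0.076). The WT call of Hspa1a was lost without WT control 1, 2 or 4 or WT CCl4 3 or 5 (0.0527 to 0.0801).

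With slide as a term, 1 of 27 calls of CCl4 response, those of up to 3 genes per list, direction and genotype, still passed. It was that of Phgdh in WT, at a log2 difference of 3.52, in a fit whose slide term rests on WT CCl4 1. That term also sets the Lcn2-/- differences of the fit, since no Lcn2-/- CCl4 array lay on the slide of the controls. The differences themselves did not all shrink in that fit: Kdelr3 was at 2.35 in WT and Mbtps2 at 0.83 and Vldlr at 1.80 in Lcn2-/-, while Cars was at -0.11 and Spcs3 at -0.10 in WT and Hspa13 at -0.08 in Lcn2-/-. The slide term was not examined for the other risen targets of ATF4 and CHOP.

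**Figure D5:**
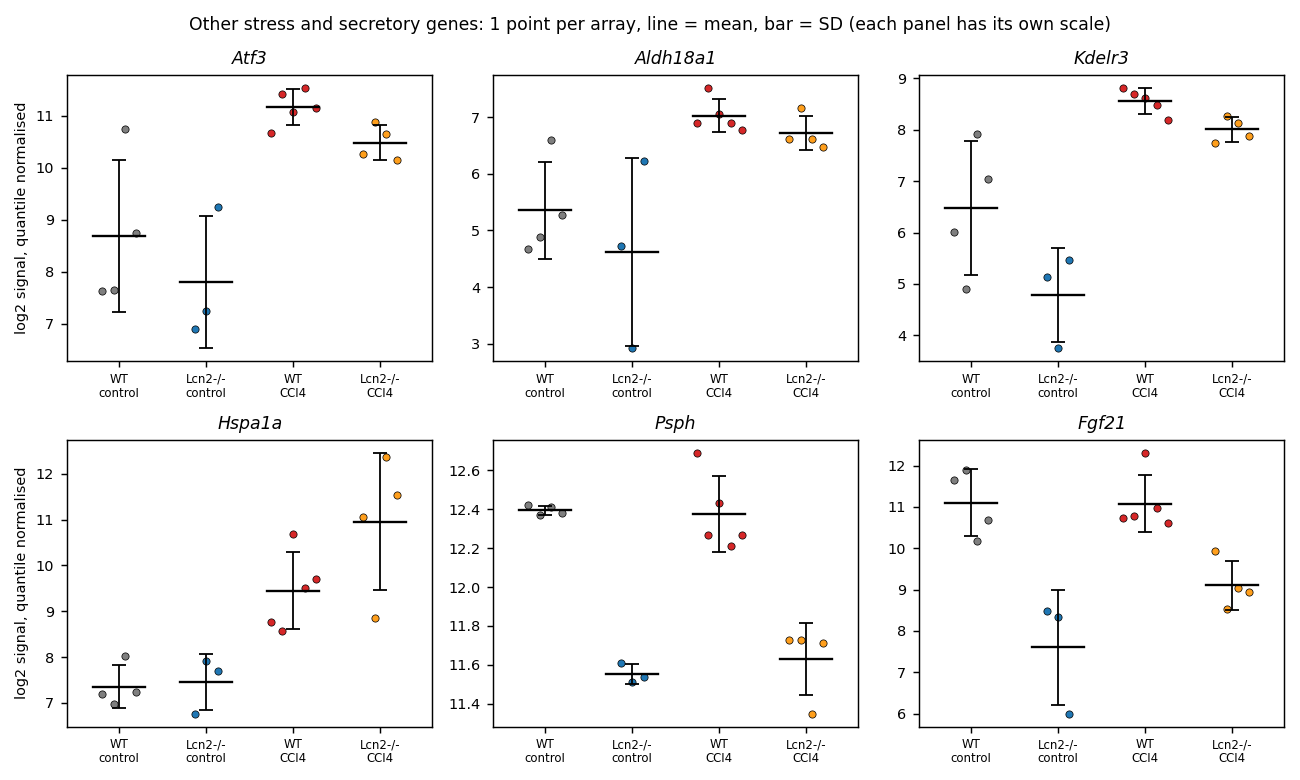
Quantile normalised log2 signal (vertical axis, a scale of its own in each panel) of 6 genes from the lists in the 4 groups (horizontal axis), with 1 point per array, a line at the mean and a bar of 1 SD. Kdelr3 and Hspa1a are higher on every CCl4 array than on the control arrays of the same genotype, and Psph is lower on every Lcn2-/- array, 11.35 to 11.73, than on every WT array, 12.21 to 12.69.

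Between genotypes, a few genes of the lists differed although no ER stress member did. Psph, the last enzyme of serine synthesis (mm9 chr5:130271441-130271500), was lower in Lcn2-/- by a log2 difference of -0.84 in controls (adjusted p = 0.00466) and -0.74 under CCl4 (adjusted p = 0.00498). It read 12.37 to 12.42 in WT controls against 11.51 to 11.61 in Lcn2-/- controls. Fgf21, a liver hormone of fasting and amino acid stress that ATF4 can induce (mm9 chr7:52869305-52869364), read 11.66, 11.89, 10.17 and 10.69 in WT controls and 8.48, 8.33 and 6 in Lcn2-/- controls. It was 11.3-fold lower in Lcn2-/- controls (adjusted p = 0.0152), and when the control arrays were paired by their numbers in the labels the adjusted p was 0.063. Without WT control 1 it was 0.0543. Without Lcn2-/- control 3, the lowest array, the log2 difference was -2.69, still called, against -3.50 with it. Under CCl4 the Fgf21 means were 11.08 in WT and 9.11 in Lcn2-/-, and this difference was not called.

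Under CCl4, Dnajc10, an ER reductase that works with BiP (mm9 chr2:80194153-80194212), was lower in Lcn2-/-, at 11.79, 12.05, 12.31 and 12.68 against 13.24, 12.87, 12.93, 13.07 and 13.07 in WT, a difference of -0.83 (adjusted p = 0.0274). It was also lower on every Lcn2-/- control array, at 12.32 to 12.69 against 13.11 to 13.34, a difference of -0.73 that did not pass (adjusted p = 0.101), and the interaction was -0.10 (adjusted p = 1). Pdia5 was higher by 0.65 (adjusted p = 0.0217), at 13.87 to 14.20 in Lcn2-/- against 13.09 to 13.56 in WT, and Cars was lower by a difference of -0.48 (adjusted p = 0.0488). The Dnajc10 call was lost without WT CCl4 1, 4 or 5 or Lcn2-/- CCl4 1, 2 or 3 (0.0556 to 0.0685), that of Pdia5 without WT CCl4 2 or 5 or Lcn2-/- CCl4 1 or 3 (0.0538 to 0.0895), and that of Cars without any 1 array other than WT control 3 (0.0513 to 0.141). With slide as a term, 4 of the 6 calls between genotypes named from the lists still passed, those of Dnajc10 (-0.78, adjusted p = 0.0556) and Cars (-0.43, adjusted p = 0.0921) being lost. Both were also lost with 75th percentile scaling (0.105 and 0.264), and Dnajc10 (0.0745), Cars (0.0921) and Pdia5 (0.0713) with the replicate block. With only the 2 groups compared, Dnajc10 (0.108), Cars (0.108), Pdia5 (0.0992) and Psph under CCl4 (0.0686) did not pass. Of the ATF4 and CHOP targets, 2 of 37 were lower in Lcn2-/- in each comparison and 0 were higher, with 0.647% and 0.516% of all genes called. The interaction was called for 0 genes of any of the 6 lists. The part of the row on the slide in these differences between genotypes was not tested.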

How the data were processed

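RNA of 16 mouse liver samples was measured on 1-colour Agilent SurePrint G3 arrays. The authors labelled it with Cy3 and ran the image software, Feature Extraction 10.7.3.1 per the file headers, and deposited spot intensity values on a linear scale, background-subtracted and not normalised between arrays. They also deposited a table of log2 values of the same arrays, used here as an alternative; its scale is close to the log2 processed signal (r 0.9872 to 0.9952 per array) and its column medians are 6.532 to 6.551. The submitters' processing notes name limma.

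The 3671 control spots of 62976 and spots marked as outliers were dropped, log2 of the processed signal was quantile normalised, spots of a probe were averaged, and a probe was kept if 3 or more arrays had it well above background. The probe with the highest mean stood for a gene, which left 24409 genes. Symbols came from the files, updated by accession through a RefSeq table used for names alone (61% of genes tested). Differences were fitted with limma 3.58.1 in R 4.3.3 over all 16 arrays and 4 groups, with no covariate. Benjamini-Hochberg adjustment was over all genes in each of 5 contrasts. The procedure was tested on simulated data with independent noise and no slide effect, so that test does not bear on the slide. Hsp90b1 was fitted on 15 arrays. The depth of an array is its signal over background, and 0 gene spots were saturated. The number of arrays limits the precision.

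Groups and replicate numbers came from the sample labels, and slides, rows and columns from the files. Over all genes, deviations of same-numbered arrays from their group means correlated at 0.234 to 0.552 in the 3 control pairs. Same-numbered control arrays also lay in the same column of 1 slide, so pairing by number and by column cannot be told apart. The correlations were -0.221 to 0.252 in the other comparisons, where the numbers do not pair the arrays. Named are all members, Lcn2, the 10 genes most like Hspa5, and from each list and contrast up to 3 called genes per direction with the largest difference; the other risen ATF4 and CHOP targets and 4 marker genes were added after their values were seen. The members and lists were chosen with earlier results of these data known. The alternatives were scaling, background, filter, probe choice, slide and replicate terms, array weights, fewer groups and left-out arrays. Positions are those of the files (mm9) or of the RefSeq promoter table (GRCm38.p6), never mixed.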

Additional observations from a re-analysis of the deposited data

Results flagged for a closer look

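Of 29 groups of 4 or 5 arrays examined over the members, 5 held an array far from the others by Dixon's test at the 95% level, which chance gives in about 1 of 20 groups. Xbp1 was highest on WT control 1, at 17.41 with the nearest array at 17.02. Dnajb9 was highest on WT CCl4 3, at 13.42 against 12.85, and Creld2 on WT control 3, at 15.05 against 14.23. Sdf2l1 was lowest on Lcn2-/- CCl4 4, at 10.88 against 12.19, and Hsp90b1 on WT CCl4 4, at 16.74 against 16.92. The 5 fell on 5 different arrays. Without Lcn2-/- CCl4 4, the Sdf2l1 difference with CCl4 in Lcn2-/- was -0.58 (adjusted p = 0.165), against -0.94 with it.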

How the results depend on the processing

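In 2364 refits of single genes, 214 lost a call, 9 gained one, and 84 changed the sign of a gene's difference, taken before rounding, with 0 of those called; the cause of a change was not tested except where fewer arrays or genes show it. The slide term left 1297 genes and 0 members called in the WT response and 426 and 0 in Lcn2-/-, and array weights gave 6629 and 2 (Sdf2l1, Trib3), and 5761 and 3 (Xbp1, Trib3, Sdf2l1). With 75th percentile scaling the median of all genes moved to -0.162 in WT and -0.141 in Lcn2-/-, 30.8% and 36.4% of called genes were higher (48.2% and 54.1% in the main fit), and 3 and 2 members were called, Xbp1 (-0.56) and Hsp90b1 (-0.45) joining Sdf2l1 in WT and Sdf2l1 joining Xbp1 in Lcn2-/-. In Lcn2-/- the members called were 0 with normexp, the authors' table, no filter, the replicate block, only the 2 groups compared (1753 genes) and without both control 3 arrays. Between genotypes under CCl4 the genes called were 87 with the replicate block, 274 with weights, 94 with 2 groups and 255 without both control 3 arrays; in controls 216 with no filter, 57 with all arrays above background and 699 with weights; for the interaction 7 with normexp, 3 with the authors' table, 1 with all arrays above background and 6 with the replicate block.

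Leaving out 1 array gave 2486 to 5076 genes and 0 to 2 members in WT, 1681 to 3200 genes and 0 to 1 member in Lcn2-/-, 72 to 184 genes between genotypes under CCl4, 94 to 142 in controls and 8 to 15 for the interaction, with 0 members in the last 3. It moved these differences across 0: in WT Atf4 (-0.11 to 0.04), Ddit3 (-0.05 to 0.28) and Creld2 (-0.17 to 0.15); in Lcn2-/- Creld2 (-0.22 to 0.18); between genotypes under CCl4 Hspa5 (-0.12 to 0.09), Atf4 (-0.22 to 0.01), Ddit3 (-0.08 to 0.35), Trib3 (-0.52 to 0.04), Sdf2l1 (-0.10 to 0.47) and Hsp90b1 (-0.06 to 0.02); in controls Atf4 (-0.10 to 0.06), Ddit3 (-0.22 to 0.17), Dnajb9 (-0.23 to 0.08) and Sdf2l1 (-0.14 to 0.05); and for the interaction Hspa5 (-0.20 to 0.01), Atf4 (-0.20 to 0.02), Ddit3 (-0.01 to 0.43), Trib3 (-0.19 to 0.36), Herpud1 (-0.08 to 0.21), Sdf2l1 (-0.07 to 0.50), Creld2 (-0.19 to 0.26) and Hsp90b1 (0.00 to 0.13).

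Other sign changes, none called, were Hspa5 in WT (0.03) and the Trib3 interaction (-0.05) with the slide term; Hspa5 (0.11), Xbp1 (0.04), Atf4 (0.01) and Hsp90b1 (0.08) under CCl4 and Atf4 (0.07) and Hsp90b1 (0.02) in controls with percentile scaling; Hspa5 (0.03) and Hsp90b1 (0.04) under CCl4, Ddit3 (0.08) and Sdf2l1 (0.01) in controls and the Trib3 interaction (-0.16) with weights; Atf4 in controls (0.08) with the mean of probes; the interactions of Trib3 with normexp (-0.02) and of Trib3 (-0.05), Herpud1 (-0.03) and Hsp90b1 (-0.27) with the authors' table; and that of Hsp90b1 (-0.25) with marked spots kept. Without both control 3 arrays, which lay nearest to the CCl4 arrays for Atf3, Aldh18a1 and Phgdh and were left out after seeing the data, as were the marked spots kept, they were Creld2 in WT (0.15), Sdf2l1 (0.08) and Hsp90b1 (0.01) in controls, and the interactions of Trib3 (-0.02), Herpud1 (-0.03), Creld2 (-0.27) and Hsp90b1 (-0.02); Sdf2l1 in WT then had an adjusted p of 0.0492.

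With the replicate block, Atf4 in WT was 0.02 and Sdf2l1 between genotypes under CCl4 -0.10. Outside the controls the numbers do not pair the arrays: Sdf2l1 in WT had an adjusted p of 0.0582, Xbp1 in Lcn2-/- 0.0673 and Trib3 in WT 0.0495 under that block. In controls, where number and column of the slide go together, that block left 92 genes and 0 members called. Fgf21 in controls also lost its call with only the 2 groups compared (adjusted p = 0.182), as did, among the CCl4 calls named from the lists, Fkbp11, Phgdh, Cars and Spcs3 in WT and Ern2, Eif2ak3, Mbtps2, Aldh18a1, Vldlr, Sec61g and Sec24d in Lcn2-/-. Mbtps2 and Spcs2 in Lcn2-/- lost theirs with the mean of probes, and Mbtps2, Aldh18a1 and Hsp90ab1 in Lcn2-/- with percentile scaling. Calls were also lost with the authors' table (Pdia5 between genotypes, 0.0573, Eif2ak3 in Lcn2-/-, 0.0556, and Cars in WT, 0.0913), with no filter (Phgdh, 0.0575, Fkbp11, 0.0555, and Aldh18a1, 0.064, in WT, and Aldh18a1, 0.051, and Eif2ak3, 0.0516, in Lcn2-/-), with normexp (Ern2 in Lcn2-/-, 0.0529, and Cars in WT, 0.0523), with the replicate block (Aldh18a1, 0.0539, Cars, 0.0987, and Spcs3, 0.0673, in WT), with marked spots kept (Cars between genotypes, 0.0521) and without both control 3 arrays (Fkbp11 in WT, 0.0796), these values being adjusted p. Intervals reaching from -0.76 to 0.70 for Sdf2l1 in controls show what 3 and 4 arrays leave undetectable.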
